A study of Mus musculus with 12 samples.

Results

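The genes described here are 6 of the 39179 genes in a table of raw read counts of mouse pancreatic stellate cells (PSCs). They were taken by symbol. *Prkg1* and *Prkg2* encode the cGMP-dependent protein kinases, and *Pde5a* encodes a phosphodiesterase that degrades cGMP. *Camk2d* and *Camk2g* encode the delta and gamma subunits of calcium/calmodulin-dependent kinase II (CaMKII), and *Camk2n1* encodes a protein inhibitor of CaMKII. The 6 genes were chosen with their levels in these libraries known, so their levels and fold changes are given as a description, without a test.

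Cyclic GMP is made by guanylyl cyclases in response to nitric oxide or natriuretic peptides. It activates the cGMP kinases and is broken down by phosphodiesterases. The type I kinase encoded by *Prkg1* is best known for relaxing smooth muscle, and the type II kinase encoded by *Prkg2* is anchored to membranes and known from intestinal epithelium, kidney and cartilage. CaMKII is a complex of many subunits, drawn from 4 genes and switched on by calcium-loaded calmodulin. The alpha and beta subunits (*Camk2a*, *Camk2b*) are mainly neuronal, while delta and gamma are found in most tissues. The *Camk2n1* protein binds the active kinase and blocks it.

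PSCs are the fibroblast-like cells that can give rise to cancer-associated fibroblasts in the pancreas. Here they were a mouse line of the C57BL/6 strain, by the study's materials an SV40-immortalised clone, and they expressed mCherry. For 72 h they were grown by themselves (mono-PSCs), with pancreatic cancer cells (PCCs) of a mouse line expressing EGFP (2W-PSCs), or with those PCCs and with macrophages (MØs) of a mouse cell line expressing TagBFP (3W-PSCs). They were then sorted as positive for mCherry and, by the study's supplement, negative for EGFP and TagBFP. Polyadenylated RNA was sequenced from the 3′ end, with 4 libraries per culture and 12 in all. All cultures were in minimal medium, and the total number of cells per flask was the same, so that PSCs made up all of the cells in mono-culture and a part of them in co-culture. Each culture rests on the same clone, so the replicates carry the spread between cultures, not between animals.

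Total counts per library ranged from 4561817 to 8093368, and levels are given as CPM, which are counts scaled to a common library size, with TMM scaling. The kit yields about 1 fragment per transcript, so CPM were set side by side between genes without a correction for length. Of 12 fibroblast markers, 10 had at least 10 counts in every library. The summed level of the 12 markers ranged between 9240 and 12900 CPM in mono-PSCs. It ranged between 12800 and 19900 CPM in 2W-PSCs and between 7660 and 9040 CPM in 3W-PSCs. *Lum* reached at most 7 counts and the stellate cell marker *Des* at most 25, so these defining markers were at or near 0. The second 2W-PSC library stood apart, with Spearman correlations of 0.773 to 0.880 to the other 2W-PSC libraries over 8700 genes, against 0.915 to 0.982 for every other pair within a culture. Fold changes of the 6 genes that involve 2W-PSCs are given with and without it.

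On GRCm38, *Prkg1* (ENSMUSG00000052920) lies on the minus strand of chromosome 19 at 30564489 to 31765033, and *Prkg2* (ENSMUSG00000029334) on the minus strand of chromosome 5 at 98929773 to 99037351. *Pde5a* (ENSMUSG00000053965) and *Camk2d* (ENSMUSG00000053819) both lie on the plus strand of chromosome 3, at 122728947 to 122859374 and 126596302 to 126846326. *Camk2g* (ENSMUSG00000021820) lies on the minus strand of chromosome 14 at 20734875 to 20794088, and *Camk2n1* (ENSMUSG00000046447) on the plus strand of chromosome 4 at 138454314 to 138460123. No 75-base window of the last 500 bases of any of the 6 genes occurred in another gene. *Pde5a* shares 55 exonic bases with 4930447N08Rik on the opposite strand, and the strand setting of the counting was not given in the sources used here, so its few counts could include reads of that gene.

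RefSeq promoter windows on GRCm38.p6, from 250 bases before a start to 50 bases after it, were at hand for *Camk2d*, *Pde5a* and 2 starts of *Prkg1*, that is for 3 of the 6 genes, and not for *Prkg2*, *Camk2n1* or *Camk2g*. A pair is shown because their genes differed in pattern. *Camk2d* was higher in every 3W-PSC library than in any mono-PSC library. *Pde5a* was a gene near the limit of counting. Capitals mark the GC box, GGGCGG, on either strand. The *Camk2d* window is chr3:126596701-126597000 on the plus strand and the *Pde5a* window is chr3:122728908-122729207 on the plus strand.
Camk2d: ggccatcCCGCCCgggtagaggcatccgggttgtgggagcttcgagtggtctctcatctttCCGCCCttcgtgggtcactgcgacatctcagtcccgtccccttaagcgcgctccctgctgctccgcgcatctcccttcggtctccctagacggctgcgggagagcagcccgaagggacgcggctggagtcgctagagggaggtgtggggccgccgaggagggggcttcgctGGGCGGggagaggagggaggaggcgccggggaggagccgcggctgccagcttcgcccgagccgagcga
Pde5a: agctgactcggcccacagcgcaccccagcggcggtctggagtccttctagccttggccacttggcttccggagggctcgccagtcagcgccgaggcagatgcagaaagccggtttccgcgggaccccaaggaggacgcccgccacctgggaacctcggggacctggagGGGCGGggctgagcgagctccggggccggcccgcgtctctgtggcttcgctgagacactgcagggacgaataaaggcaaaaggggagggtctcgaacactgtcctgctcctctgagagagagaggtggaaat
The *Camk2d* window had a G and C content of 70.3% and 3 GC boxes, beginning at -243, -189 and -18 with the start site counted as 0. The *Pde5a* window had 66.3% and a single box at -82. The starts of *Prkg1*, chr19:31764984-31765283 and chr19:31664321-31664620 on the minus strand, had 55.3% and 62.3%, each with a single box. A GC box was present in 35.7% of the 32851 promoter windows of the table. None of the windows held the letters of a STAT site (TTCNNNGAA, in 8.30% of all windows), an AP-1 site (TGANTCA, 7.81%), a TEAD site (GGAATG, 14.7%), a CRE half-site (TGACG, 20.8%) or a CArG box (1.63%), on either strand. The motifs were chosen after the levels were seen, and a match or its absence describes only the letters of these windows.

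*Prkg2* was the most abundant of the 6 genes in each culture, and its level was more than 3 times as high in both co-cultures as in mono-culture. In mono-PSCs it stood at 107, 111, 110 and 92.1 CPM in replicates 1 to 4. In 2W-PSCs it stood at 394, 289, 480 and 360 CPM, and in 3W-PSCs at 366, 396, 255 and 325 CPM. Every co-culture library was above every mono-culture library, while the co-cultures overlapped each other. The means were 105 ± 8.75, 381 ± 79.2 and 335 ± 61.3 CPM (SD, n = 4 each). By mean CPM, *Prkg2* ranked 1690 of 15776 detected genes in mono-PSCs, 332 of 16096 in 2W-PSCs and 366 of 17005 in 3W-PSCs. The log2 fold change was 1.87 ± 0.21 (SE; 3.66-fold) in 2W-PSCs and 1.67 ± 0.16 (3.18-fold) in 3W-PSCs against mono-PSCs, and -0.18 ± 0.20 in 3W-PSCs against 2W-PSCs. Without the second 2W-PSC library the first and last of these values were 1.97 and -0.29. With these sorted cells measured in bulk, a larger share of PSCs expressing the gene and more RNA per cell cannot be told apart, here and for each gene that follows.

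*Prkg1*, the gene of the other cGMP kinase, was close to the limit of counting. It had 10, 7, 13 and 15 counts in the mono-PSC libraries, 16, 26, 11 and 12 in 2W-PSCs and 5, 15, 8 and 21 in 3W-PSCs. Its mean level was 1.81 ± 0.385, 3.08 ± 2.21 and 1.54 ± 0.911 CPM in mono-, 2W- and 3W-PSCs (SD, n = 4 each), and the cultures overlapped. The second 2W-PSC library held the highest value, 6.38 CPM. The log2 fold change in 2W-PSCs against mono-PSCs was 0.74 ± 0.57 (SE) and fell to 0.12 without that library. That in 3W-PSCs against 2W-PSCs was -0.95 ± 0.60, and -0.36 without it. These differences were within the spread between libraries of a culture.

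The cGMP kinase RNA of the sorted cells was thus almost all of *Prkg2*. Per *Prkg1* count there were 61.0, 80.9, 47.6 and 50.7 *Prkg2* counts in mono-PSCs. There were 175, 45.3, 274 and 187 in 2W-PSCs and 551, 228, 250 and 119 in 3W-PSCs. The mean ratio was 60.1 ± 15.0, 170 ± 94.2 and 287 ± 185 (SD, n = 4 each). The ratio was lowest of the co-culture libraries in the second 2W-PSC library, which lay below all mono-PSC values, and every 3W-PSC library was above every mono-PSC library. The wide spread came with a denominator of 5 to 26 counts.

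*Pde5a*, whose product is the target of sildenafil, was also low, with 15 to 57 counts per library. Its level was 4.39, 6.46, 4.26 and 3.39 CPM in mono-PSCs. It was 3.80, 14.0, 7.16 and 4.98 CPM in 2W-PSCs and 4.12, 2.20, 3.44 and 1.95 CPM in 3W-PSCs. Each pair of cultures overlapped, and the highest value again came from the second 2W-PSC library. Against mono-PSCs the log2 fold change was 0.70 ± 0.46 (SE) in 2W-PSCs, 0.21 without that library, and -0.66 ± 0.40 in 3W-PSCs. In 3W-PSCs against 2W-PSCs it was -1.33 ± 0.47, and -0.86 without that library. With DESeq2 the value in that comparison was -1.37. *Prkg2* counts per *Pde5a* count averaged 23.6 ± 4.47 in mono-PSCs, 65.9 ± 34.2 in 2W-PSCs and 128 ± 53.8 in 3W-PSCs (SD, n = 4 each).

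**Figure D1:**
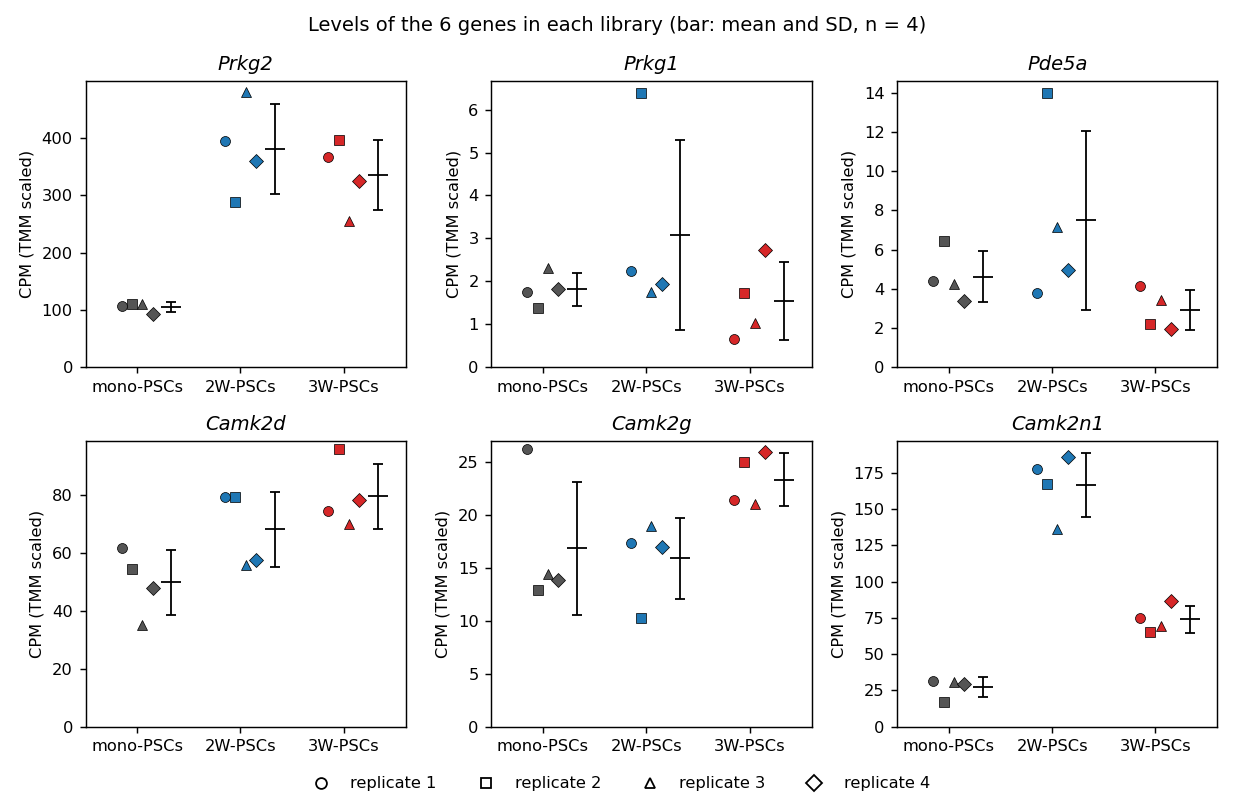
Level of each of the 6 genes in the 12 libraries, in CPM on linear axes that start at 0, by culture, with a point for each library and the mean and SD of 4 libraries. *Prkg2* and *Camk2n1* are higher in every 2W- and 3W-PSC library than in any mono-PSC library, and *Prkg1* and *Pde5a* reach at most 14 CPM, with overlapping cultures.

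*Camk2n1*, the inhibitor, was the gene of the 6 that separated all 3 cultures, and it had the largest fold change of the 6 in 2W-PSCs against mono-PSCs. It stood at 31.8, 17.0, 30.7 and 29.4 CPM in mono-PSCs. It reached 178, 167, 136 and 186 CPM in 2W-PSCs and 74.8, 65.1, 69.5 and 86.8 CPM in 3W-PSCs. The cultures did not overlap, with 3W-PSCs between mono- and 2W-PSCs. The means were 27.2 ± 6.86, 167 ± 21.9 and 74.0 ± 9.37 CPM (SD, n = 4 each). *Camk2n1* ranked 5312, 968 and 2430 among the detected genes of mono-, 2W- and 3W-PSCs. The log2 fold change against mono-PSCs was 2.63 ± 0.23 (SE; 6.18-fold) in 2W-PSCs and 1.43 ± 0.20 (2.7-fold) in 3W-PSCs. In 3W-PSCs against 2W-PSCs it was -1.17 ± 0.16, which is 2.25-fold lower. Without the second 2W-PSC library the first and last of these values were 2.61 and -1.17.

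*Camk2d* was the main CaMKII subunit gene in these cells, and its levels moved less. They were 61.6, 54.6, 35.2 and 48.0 CPM in mono-PSCs. They were 79.4, 79.5, 56.0 and 57.6 CPM in 2W-PSCs and 74.5, 95.8, 70.0 and 78.2 CPM in 3W-PSCs. Every 3W-PSC library was above every mono-PSC library, while 2W-PSCs overlapped both. The means were 49.9 ± 11.3, 68.1 ± 13.1 and 79.6 ± 11.3 CPM (SD, n = 4 each). The log2 fold change against mono-PSCs was 0.47 ± 0.22 (SE) in 2W-PSCs and 0.67 ± 0.18 (1.59-fold) in 3W-PSCs, and it was 0.23 ± 0.18 between the co-cultures. Without the second 2W-PSC library, the values in 2W-PSCs against mono-PSCs and between the co-cultures were 0.37 and 0.31.

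*Camk2g* was lower than *Camk2d* in every culture. It stood at 26.2, 12.9, 14.4 and 13.8 CPM in mono-PSCs. It stood at 17.3, 10.3, 18.9 and 17.0 CPM in 2W-PSCs and 21.4, 25, 21 and 25.9 CPM in 3W-PSCs. Every 3W-PSC library was above every 2W-PSC library, but the first mono-PSC library was above all of both co-cultures. The log2 fold change was -0.06 ± 0.31 (SE) in 2W-PSCs and 0.47 ± 0.24 in 3W-PSCs against mono-PSCs, and 0.55 ± 0.22 in 3W-PSCs against 2W-PSCs. Without the first mono-PSC library the values against mono-PSCs were 0.21 and 0.75. Among the 13 alternatives tried, the value in 3W-PSCs against mono-PSCs was highest without that library. Without the second 2W-PSC library the value in 2W-PSCs against mono-PSCs was 0.08 and that in 3W-PSCs against 2W-PSCs 0.39. The sign of the value in 2W-PSCs against mono-PSCs thus turned without either of these libraries.

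**Figure D2:**
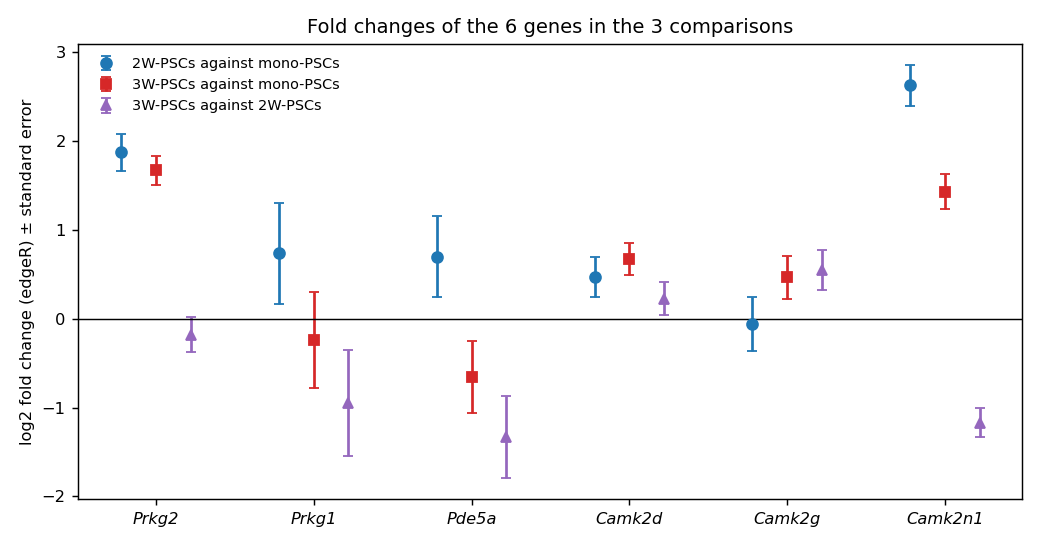
Log2 fold change of each of the 6 genes in the 3 comparisons, with bars of 1 SE from the edgeR fit of 8 libraries. *Camk2n1* and *Prkg2* lie highest against mono-PSCs, at 2.63 and 1.87 in 2W-PSCs and at 1.43 and 1.67 in 3W-PSCs.

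The inhibitor was also compared with the kinase it binds, within each library. *Camk2a* had at most 12 counts in a library and *Camk2b* at most 30, so the sum of the 4 subunit genes was mostly *Camk2d*, at 71.5 ± 3.53% of subunit counts in mono-PSCs, 78.2 ± 6.41% in 2W-PSCs and 76.0 ± 1.68% in 3W-PSCs (SD, n = 4 each). Per subunit count there were 0.356, 0.231, 0.595 and 0.459 *Camk2n1* counts in mono-PSCs. There were 1.81, 1.80, 1.71 and 2.46 in 2W-PSCs and 0.770, 0.529, 0.749 and 0.820 in 3W-PSCs. Inhibitor counts exceeded subunit counts in each 2W-PSC library and in no library of the other cultures. The means were 0.410 ± 0.154, 1.95 ± 0.343 and 0.717 ± 0.129. The 3W-PSC range overlapped that of mono-PSCs, where the highest value was 0.595, although *Camk2n1* itself did not overlap between them. The subunit sum was 69.7 ± 15.9 CPM in mono-PSCs, 86.6 ± 10.7 in 2W-PSCs and 105 ± 13.5 in 3W-PSCs.

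**Figure D3:**
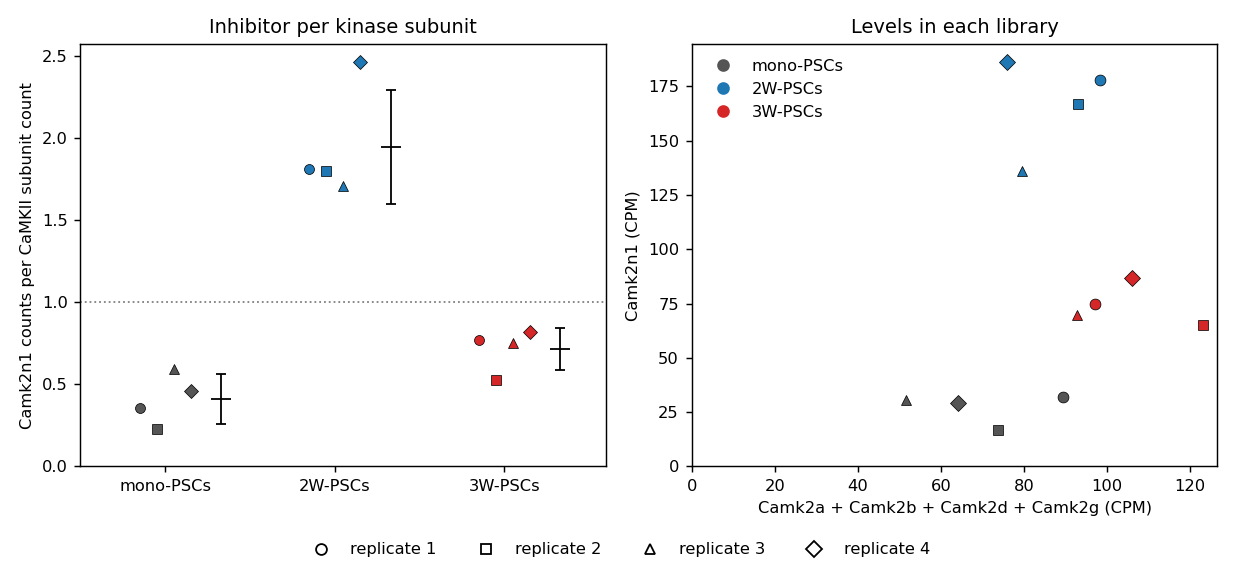
Left, *Camk2n1* counts per count of the CaMKII subunit genes (*Camk2a*, *Camk2b*, *Camk2d* and *Camk2g* together) in each library, by culture, with the mean and SD of 4 libraries and a dotted line at 1, and right, the CPM of *Camk2n1* against that of the subunit genes together. On the left the 2W-PSC libraries lie between 1.71 and 2.46 and all mono- and 3W-PSC libraries below 1, and on the right the 2W-PSC libraries lie highest on the axis of *Camk2n1*.

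Across the whole table, edgeR at an adjusted p of 0.05 called 0.991% of the 11199 genes tested in 2W-PSCs against mono-PSCs (0.839% higher, 0.152% lower). Of the 6 genes 2 were past that threshold there, *Prkg2* and *Camk2n1*, both higher. In 3W-PSCs against mono-PSCs it called 26.4% of 11551 genes (13.4% higher, 13% lower), and 3 of the 6 genes, *Prkg2*, *Camk2n1* and *Camk2d*, all higher. In 3W-PSCs against 2W-PSCs it called 10.7% of 11513 genes (5.73% higher, 4.95% lower), and 1 of the 6 genes, *Camk2n1*, which was lower. All 6 genes passed the filter on low counts in each comparison. Since the genes were chosen with these values known, nothing is read from these counts.

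In 2W-PSCs against mono-PSCs 2 of the 6 genes did not overlap, as did 5.73% of all genes tested (3.29% above, 2.45% below). In 3W-PSCs against mono-PSCs 3 of the 6 did not overlap, beside 25.9% of all genes (13.7% above, 12.2% below). Between the co-cultures *Camk2n1* lay below and *Camk2g* above in 3W-PSCs without overlap, beside 21.3% of all genes (11.5% above, 9.87% below). The median log2 fold change of the 6 was 0.72, 0.57 and -0.56 in the 3 comparisons in this order, against 0.02, 0.01 and 0.00 for all genes. The 6 genes were chosen with these values known, so nothing is read from the overlaps or the medians. The comparisons share libraries, so the 3 fold changes of a gene are not independent of each other.

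The likeness of other genes to each of the 6 was measured as the root mean square difference of centred log2 CPM over the 12 libraries, among about 8700 genes with a mean log2 CPM above 3. *Cdh11*, a cadherin of mesenchymal cells, was the nearest gene to both *Prkg2* (0.339) and *Camk2n1* (0.426), with means of 15.8 ± 4.25, 82.5 ± 12.1 and 47.6 ± 9.10 CPM in mono-, 2W- and 3W-PSCs (SD, n = 4 each). *Prkg2* was next nearest to the focal adhesion genes *Fblim1* (0.363) and *Tes* (0.366), and *Camk2n1* to *Megf10* (0.443) and *Gm11942* (0.514). *Fblim1* stood at 37.5 ± 3.48, 84.7 ± 14.1 and 90.8 ± 8.59 CPM, level between the co-cultures as *Prkg2* was, while *Megf10* stood at 5.99 ± 1.55, 35.4 ± 12.3 and 12.7 ± 2.36 CPM, highest in 2W-PSCs as *Camk2n1* was.

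The subunit genes had closer neighbours, but they also varied less, with an SD of log2 CPM over the 12 libraries of 0.38 for *Camk2d* and 0.41 for *Camk2g*, against 0.85 for *Prkg2* and 1.11 for *Camk2n1*. *Camk2d* was nearest to *Atrx* (0.150), *Gtf3c2* (0.154) and *D15Ertd621e* (0.161), and *Camk2g* to *Srgap2* (0.140), *Zfand3* (0.145) and *Copa* (0.158). *Prkg1* was nearest to *Zfp954* (0.333), *Leprot* (0.355) and *Ntmt1* (0.363), and *Pde5a* to *Acot8* (0.320), *8430429K09Rik* (0.326) and *Akap8l* (0.335). For *Prkg1* and *Pde5a* the likeness rests on few counts.

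The other genes of both pathways were taken from a list of 67, all in the table, of which 40 passed the filter in each comparison with mono-PSCs and 41 between the co-cultures. In 2W-PSCs against mono-PSCs 0 were higher and 1 lower (2.5%, against 0.991% of all genes), in 3W-PSCs against mono-PSCs 5 were higher and 5 lower (25%, against 26.4%), and in 3W-PSCs against 2W-PSCs 3 were higher and 3 lower (14.6%, against 10.7%). The median log2 fold change of the listed genes was 0.00, -0.01 and -0.07. In 2W-PSCs against mono-PSCs 7 of the 40 had an unadjusted p under 0.05, and DESeq2 called 2. P-values of these genes come from the edgeR quasi-likelihood fit and are Benjamini-Hochberg values across the whole table.

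Little RNA of the ligands and nitric oxide synthases was seen. The natriuretic peptide genes *Nppa*, *Nppb* and *Nppc* had 0 counts in every library. The nitric oxide synthase gene with the highest level, *Nos3*, had at most 19 counts. Among the receptors, *Npr2*, the guanylyl cyclase for C-type natriuretic peptide, had the highest level, at a mean of 37.3 CPM over the 12 libraries. *Npr3*, the clearance receptor without a cyclase, stood at 8.61 ± 1.84, 19.8 ± 7.51 and 18.9 ± 6.42 CPM in mono-, 2W- and 3W-PSCs (SD, n = 4 each). It rose in 3W-PSCs (log2 fold change 1.12 ± 0.27 SE, adjusted p = 0.00551) and had a value of 1.21 ± 0.32 in 2W-PSCs (adjusted p = 0.138).

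Other phosphodiesterases changed in both directions. *Pde1a*, a calmodulin-dependent phosphodiesterase, stood at 5.64 ± 2.6, 11.8 ± 3.41 and 31.6 ± 15.0 CPM (SD, n = 4 each). It rose in 3W-PSCs against mono-PSCs (log2 fold change 2.51 ± 0.36 SE, adjusted p = 5.91e-05) and against 2W-PSCs (1.44 ± 0.33, adjusted p = 0.0202). *Pde1b* rose in 3W-PSCs against mono-PSCs (2.66 ± 0.66, adjusted p = 0.00654), from 0 to 6 counts per mono-PSC library. *Pde3b*, which cGMP inhibits, fell by 0.80 on the log2 scale against mono-PSCs (adjusted p = 0.00963) and by 0.91 against 2W-PSCs (adjusted p = 0.0411). *Pde2a*, which cGMP activates, fell by 0.98 in 3W-PSCs against 2W-PSCs (adjusted p = 0.0424). The cGMP exporter *Abcc5* had the highest level of this role, at a mean of 53.2 CPM.

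Among substrates and partners of the cGMP kinases, *Rgs2* was the 1 of 9 tested genes that changed. It encodes a brake on G protein signalling that the type I kinase phosphorylates. Its level was 49.3, 53.3, 52.7 and 51.5 CPM in mono-PSCs. It was 12.8, 9.08, 20.5 and 8.19 CPM in 2W-PSCs and 3.32, 5.78, 7.89 and 7.92 CPM in 3W-PSCs. No library of one culture overlapped another culture. *Rgs2* fell by 2.01 ± 0.29 (SE) on the log2 scale in 2W-PSCs against mono-PSCs (adjusted p = 0.00415). In 3W-PSCs the log2 fold change against mono-PSCs was -3.06 ± 0.24 (adjusted p = 5.66e-08). The difference between the co-cultures, -1.02 ± 0.37, did not pass the test (adjusted p = 0.107). *Rhoa*, the small GTPase, had the highest level of this role, at a mean of 308 CPM.

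Among the other calcium/calmodulin kinases, *Camk1* had the highest level and fell. It stood at 218 ± 54.1, 155 ± 15.6 and 75 ± 5.03 CPM in mono-, 2W- and 3W-PSCs (SD, n = 4 each). In 3W-PSCs it fell by 1.54 ± 0.18 (SE) on the log2 scale against mono-PSCs (adjusted p = 5.59e-06) and by 1.05 ± 0.15 against 2W-PSCs (adjusted p = 0.00144) (*Camk2d* and *Camk2g* had values of 0.23 and 0.55 in the latter comparison). *Calm3*, a calmodulin gene, fell by 0.47 in 3W-PSCs against mono-PSCs (adjusted p = 0.0213). Of the genes of calcineurin, the calmodulin-dependent phosphatase, *Ppp3ca* was the most abundant, at 245 CPM. The calcineurin regulator *Rcan2* fell by 1.04 in 3W-PSCs against mono-PSCs (adjusted p = 0.0210).

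Of the CaMKII substrates and calcium handling genes, *Atp2a2*, the calcium pump of the endoplasmic reticulum, stood at 82.9 ± 19.7, 98.4 ± 12.4 and 172 ± 19.7 CPM (SD, n = 4 each). It rose in 3W-PSCs against mono-PSCs (log2 fold change 1.05 ± 0.18 SE, adjusted p = 0.000335) and against 2W-PSCs (0.81 ± 0.16, adjusted p = 0.00907). *Mef2d*, a transcription factor held back by class II histone deacetylases, rose in 3W-PSCs against mono-PSCs (0.71 ± 0.20, adjusted p = 0.0121). *Hdac4*, such a deacetylase and a CaMKII substrate, rose in 3W-PSCs against 2W-PSCs (0.90 ± 0.25, adjusted p = 0.0411).

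**Figure D4:**
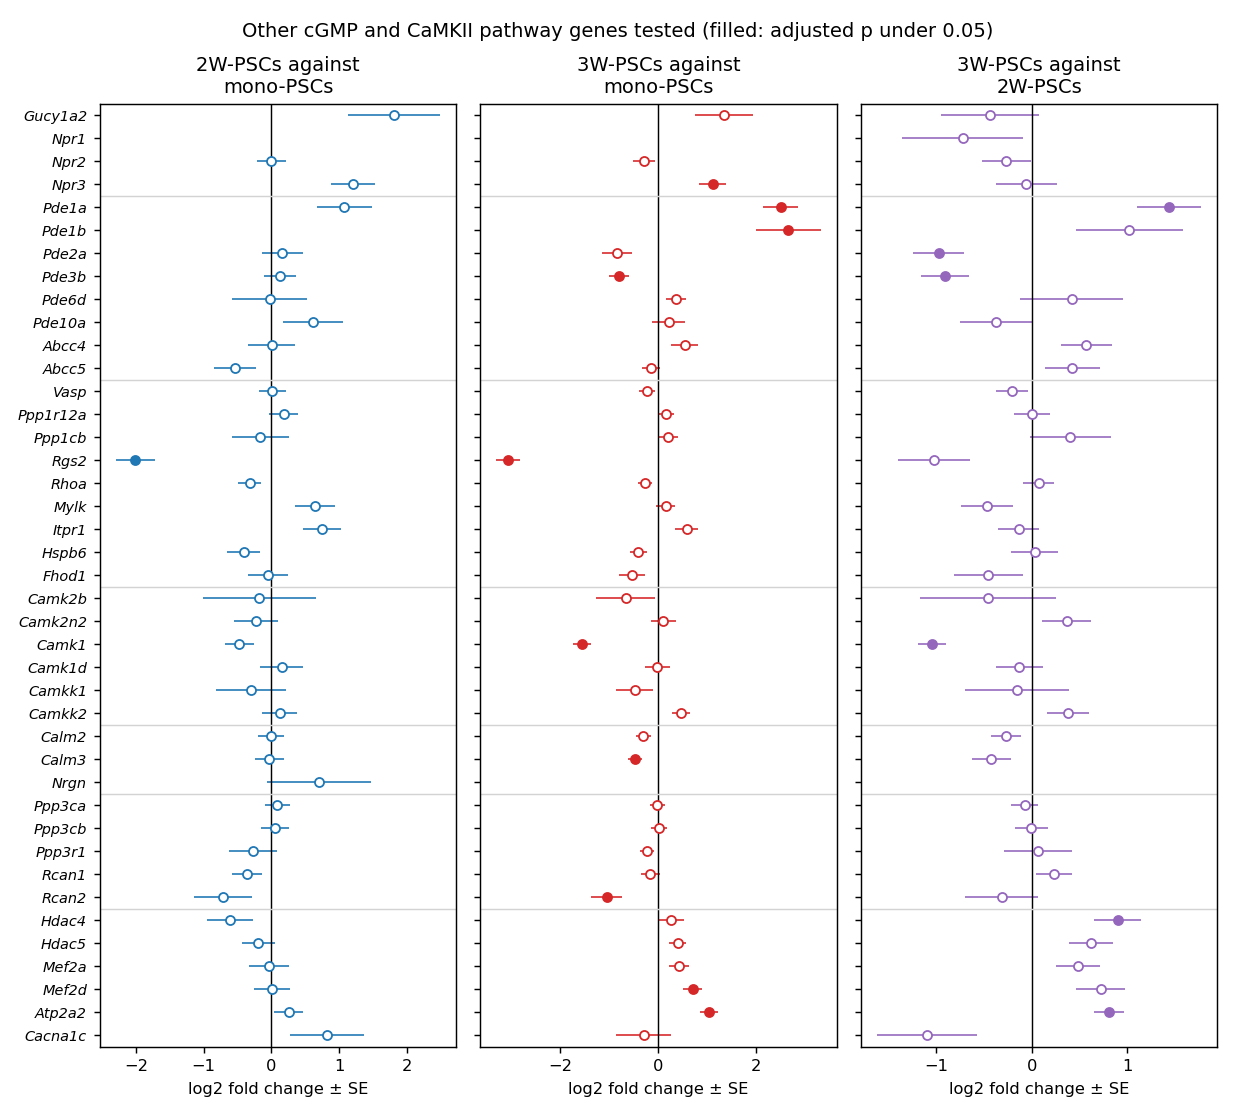
Log2 fold change of pathway genes that passed the filter, grouped by role, in the 3 comparisons, with bars of 1 SE and filled points for genes past an adjusted p of 0.05 in edgeR. Each panel has its own axis range, and *Rgs2* lies farthest to the left against mono-PSCs, at -2.01 in 2W-PSCs and -3.06 in 3W-PSCs.

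Of these calls, 7 were lost under at least 1 alternative. With all 12 libraries in a fit, *Calm3* (adjusted p = 0.0985), *Rcan2* (0.074) and *Mef2d* (0.0527) were not called in 3W-PSCs against mono-PSCs, and with no filter *Hdac4* (0.0637) and *Pde2a* (0.0693) were not called in 3W-PSCs against 2W-PSCs. Calls were also lost with a library left out, and the highest adjusted p that this gave is in brackets. In 3W-PSCs against 2W-PSCs, *Hdac4* (adjusted p up to 0.139) and *Pde3b* (up to 0.12) lost their calls without any 1 of the 3W-PSC libraries and without 2W-PSC replicate 1 or 4. *Pde2a* (up to 0.140) did so without 3W-PSC replicate 1, 2 or 4 or 2W-PSC replicate 1 or 4, and *Pde1a* (up to 0.0736) without 3W-PSC replicate 1 or 2 or 2W-PSC replicate 4. In 3W-PSCs against mono-PSCs, *Calm3* (up to 0.0748) lost its call without 3W-PSC replicate 2 or 4 or mono-PSC replicate 4, *Rcan2* (up to 0.109) without 3W-PSC replicate 2 or mono-PSC replicate 2, and *Mef2d* (0.0604) without 3W-PSC replicate 2.

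Markers of the other cultured cells moved with the cultures. The summed level of 10 epithelial markers ranged between 0.605 and 2.46 CPM in mono-PSCs, between 76.3 and 149 CPM in 2W-PSCs, and between 52.3 and 90.9 CPM in 3W-PSCs, led by *Krt18*. *Cldn4* was at 0 in every library and *Epcam* at 0 in all 2W-PSC libraries. The summed level of 11 macrophage markers ranged between 1.60 and 7.64 CPM in mono-PSCs, between 2.25 and 10.5 CPM in 2W-PSCs, and between 14.9 and 48.7 CPM in 3W-PSCs, and *Ptprc* was at 0 in all mono- and 2W-PSC libraries. In 2W-PSCs the epithelial sum was 104, 82.4, 76.3 and 149 CPM in replicates 1 to 4, the same order of libraries as for *Camk2n1*, while *Prkg2* was highest in replicate 3, where the epithelial sum was lowest. In 3W-PSCs the sum was 76.9, 60.3, 52.3 and 90.9 CPM, with replicates 4 and 1 highest for *Camk2n1* too. *Prkg2* was lowest of the 3W-PSC libraries in replicate 3, at 255 CPM, where the epithelial sum was also lowest, unlike in 2W-PSCs. RNA of PCCs alone was not analysed here, and the part of other cells in the levels of the 6 genes was not tested.

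**Figure D5:**
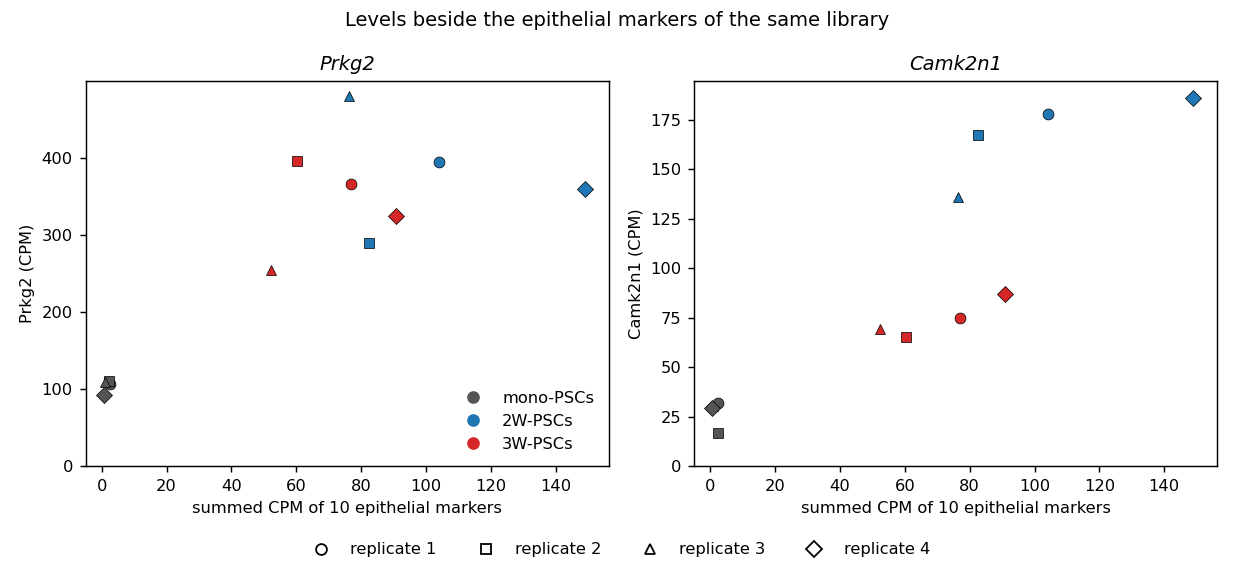
Level of *Prkg2* and *Camk2n1* against the summed level of 10 epithelial markers in each of the 12 libraries, in CPM. Mono-PSC libraries lie at or below 2.46 CPM of epithelial markers and co-culture libraries at 52.3 to 149 CPM.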

How the data were processed

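RNA of sorted PSCs was measured in 12 libraries, 4 each of mono-, 2W- and 3W-PSCs. The authors checked the reads with FastQC, trimmed and aligned them with STAR (build GRCm38), and used featureCounts to count reads per gene. The methods speak of normalised counts, but the deposited values are raw counts per gene, whole numbers with differing totals. All columns matched a sample and 0 were left out. No use of molecular identifiers is given in the sources used here, so PCR copies count as reads. The SD and SE include counting error and the spread between cultures of the same clone, not between animals. Of 39179 genes, 20802 had no count.

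Cultures were compared in pairs with edgeR 4.0.16 under R 4.3.3 (limma 3.58.1), using TMM, filterByExpr, glmQLFit and glmQLFTest on the 8 libraries compared, without a block, with Benjamini-Hochberg adjustment over all genes tested and a threshold of 0.05. Standard errors were derived from the fold change and its F statistic. Levels are CPM with TMM over 12 libraries, and log2 CPM used a prior count of 2. The 6 genes, the pathway and marker lists, and the rule for named genes were chosen with earlier results of these data known. Named were the 6 genes, pathway genes past the threshold, the most abundant gene of each pathway role, of which 1 is not reported here, and the 3 genes most like each of the 6. Others are named in the text for their low counts, chosen after their values were seen. Positions are from GENCODE M21, and 6 of 6 genes matched.

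Replicate numbers are shared by the cultures in the labels, which give no reason for the number. Deviations from the culture means correlated between same-numbered libraries of 2W- and mono-PSCs at 0.499, 0.396, 0.329 and 0.154, so the numbers were taken to pair these libraries, a pairing that comes from the data. The other comparisons were not taken as paired. Alternatives were DESeq2 size factors, no filter, all 12 libraries in a fit, the replicate block, each library left out in turn and DESeq2 1.42.0 with its Wald test. The tests were tried first on simulated data. In 2W-PSCs against mono-PSCs, 79.8% of 4-fold and 23.5% of 2-fold changes were called, and 4.67% of calls were false. In 3W-PSCs against mono-PSCs these values were 92.9, 57.1 and 6.92%. Between the co-cultures they were 91, 31.3 and 6.87%. Many 2-fold changes were thus missed in the simulations, which changed few genes and held no pairing and no library that stood apart. How far these shares hold for the real libraries was not tested.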

Additional observations from a re-analysis of the deposited data

Results flagged for a closer look

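Of 27 sets of 4 libraries of a culture, in which the lowest and highest values were tested with Dixon's criterion, 4 had a library far from the others, where chance gives about 1 in 20. The gap of that library to its neighbour, as a share of the range, was above the 95% critical value in each. Some sets share counts, and the genes were chosen with their levels known, so no excess over chance is read from this. *Prkg1* stood at 6.38 CPM in the second 2W-PSC library (0.892). *Camk2g* stood at 26.2 CPM in the first mono-PSC library (0.890). *Camk2n1* stood at 17.0 CPM in the second mono-PSC library (0.839), which widens its difference from 2W-PSCs. The count of *Camk2n1* per CaMKII subunit count was 2.46 in the fourth 2W-PSC library (0.865), and the other 2W-PSC libraries remained above every mono- and 3W-PSC library.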

How the results depend on the processing

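Over 13 alternatives, 17 of the 18 fold changes of the 6 genes kept their sign, and that of *Camk2g* in 2W-PSCs against mono-PSCs ranged from -0.18 to 0.21. The log2 fold change of *Prkg2* against mono-PSCs lay between 1.74 and 1.97 in 2W-PSCs, and between 1.58 and 1.78 in 3W-PSCs. That of *Camk2n1* lay between 2.44 and 2.71, and between 1.27 and 1.5. The main fold changes of the 6 genes come from fits without the replicate block. With it, in 2W-PSCs against mono-PSCs, *Prkg1* had a value of 0.56, *Prkg2* 1.855 and *Pde5a* 0.58. *Camk2d* had 0.47, *Camk2g* -0.04 and *Camk2n1* 2.65. The cause of the changes that follow was not tested. In 2W-PSCs against mono-PSCs 111 genes were called, 177 with no filter, 262 with all 12 libraries in a fit, 277 with DESeq2's Wald test and 61 to 233 with a library left out, the highest without the second 2W-PSC library and 61 to 64 without 2W-PSC replicate 1 or 4 or mono-PSC replicate 3 or 4. Of the pathway genes 1 was called, and 2 with DESeq2's Wald test. In 3W-PSCs against 2W-PSCs 1230 genes were called, and 497 to 2107 with a library left out, 2107 without the second 2W-PSC library, 666 without the fourth, and 550, 497, 750 and 667 without 3W-PSC replicates 1 to 4. Of the pathway genes 6 were called, and 2 to 9 with a library left out, 2 without 3W-PSC replicate 1 or 2 or 2W-PSC replicate 4, and 3 without 3W-PSC replicate 4 or 2W-PSC replicate 1. With the replicate number as a block, 752 genes and 3 pathway genes were called in 3W-PSCs against 2W-PSCs, where *Hdac4*, *Pde2a* and *Pde3b* were lost, and in 2W-PSCs against mono-PSCs, where the numbers pair the libraries, 135 genes and 1 pathway gene, *Rgs2*, were called, as without the block for the pathway. In 3W-PSCs against mono-PSCs 3054 genes were called, and 2063 to 4266 over the alternatives. *Prkg1* and *Pde5a* had at most 57 counts in a library.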

Other observations

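Some pathway genes too low for the test in at least 1 comparison were uneven among cultures. *Pde1c* had 2, 7, 4 and 15 counts in the mono-PSC libraries, 0, 0, 4 and 0 in 2W-PSCs and 0, 0, 0 and 1 in 3W-PSCs. *Nos2*, the inducible nitric oxide synthase, had counts only in 3W-PSC replicates 2 and 3, with 10 and 2. *Gucy1a3*, a subunit of the nitric oxide receptor, had its 7 counts in the second 2W-PSC library, the library that stood apart. Of the 67 listed genes, 7 had no count in any library and 12 had at most 3 counts in every library. These genes were chosen after their counts were seen, and no test was made.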
